A study of Mus musculus with 11 samples.

Results

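The 4 tissue inhibitors of metalloproteases, Timp1, Timp2, Timp3 and Timp4, and Reck, a membrane-anchored inhibitor of the same enzymes, were followed in mouse hearts after myocardial infarction (MI). These 5 genes were taken by name from the 55513 genes of the count table, and all 5 passed the filter on low counts in every comparison. Hearts came from 11 female C57BL/6J mice aged 8 weeks. In 8 of them the left anterior descending coronary artery (LAD) was ligated and the infarct and its border zone were taken 3 days later. Of these, 4 mice (A116, A117, A119 and A120) received A10i, the metalloprotease inhibitor GI254023X directed at ADAM10, at 100 mg/kg, and 4 mice (A105, A127, A128 and A129) received its solvent DMSO. Both came from implanted osmotic pumps, which the study did not prime, so that dosing started late. The other 3 mice (S1, S2 and S3) were sham-operated and carried no infarct. They received DMSO as well and gave healthy heart tissue, and the labels name no day for them. Both comparisons with sham mice therefore set infarct and border tissue against healthy tissue, and they share the same 3 sham mice. The question was how the mRNA of these inhibitors stood after infarction, and how it stood when ADAM10 was inhibited.

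TIMPs are small secreted proteins that fill the active site of matrix metalloproteases (MMPs) and of some ADAM and ADAMTS enzymes, so that the balance of protease and inhibitor sets how fast extracellular matrix is cut. In the heart this balance bears on scar formation, dilation and rupture after infarction. TIMP1 is the strongly inducible member, TIMP2 also takes part in activating pro-MMP2 on the cell surface together with MMP14, TIMP3 binds to the matrix and blocks ADAM10 and ADAM17 as well as MMPs, and TIMP4 is known for its high level in the heart. RECK restrains MMP2, MMP9 and MMP14 at the membrane and serves with ADGRA2 as a receptor complex for WNT7 ligands in brain vessels.

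The genes lie on different chromosomes of GRCm38. Timp1 (ENSMUSG00000001131) covers chrX:20870166-20874735 on the plus strand, Timp2 (ENSMUSG00000017466) chr11:118301069-118355740 on the minus strand, Timp3 (ENSMUSG00000020044) chr10:86300372-86349506 on the plus strand, Timp4 (ENSMUSG00000030317) chr6:115241892-115252205 on the minus strand and Reck (ENSMUSG00000028476) chr4:43875530-43944806 on the plus strand. In the annotation Timp1, Timp3 and Timp4 each sit inside a synapsin gene on the opposite strand, namely Syn1, Syn3 and Syn2. Timp1 shares 0 exon bases with Syn1, whereas 1733 exon bases of Timp3 (21.3%) and 90 of Timp4 (1.53%) are also exons of their host gene. The hosts gave few reads, with 3 to 39 counts per library for Syn1, 35 to 83 for Syn3 against 7945 to 13298 for Timp3, and 62 to 124 for Syn2 against 768 to 2144 for Timp4. None of the 3 synapsin genes passed the test in any comparison.

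The start-site regions of the member that rose most after infarction and of the member that fell are shown to compare their motifs (RefSeq, GRCm38.p6, 5′ to 3′ on each gene's own strand). Capitals mark the motif matches. The first and last sequences are the 250 bases before the start site, at chrX:20869916-20870165 (plus strand) for Timp1 and chr6:115252206-115252455 (minus strand) for Timp4. The 30 bases in between lie at chrX:20870184-20870213, just after the Timp1 start site.
Timp1 upstream: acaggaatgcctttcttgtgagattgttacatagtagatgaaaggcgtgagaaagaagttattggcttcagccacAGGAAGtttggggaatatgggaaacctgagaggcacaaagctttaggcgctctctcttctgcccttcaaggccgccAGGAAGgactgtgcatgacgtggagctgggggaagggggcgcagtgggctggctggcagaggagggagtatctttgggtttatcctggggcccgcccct
Timp1 after the start site: tgggtggaTGAGTAAtgcgtccAGGAAGcc
Timp4 upstream: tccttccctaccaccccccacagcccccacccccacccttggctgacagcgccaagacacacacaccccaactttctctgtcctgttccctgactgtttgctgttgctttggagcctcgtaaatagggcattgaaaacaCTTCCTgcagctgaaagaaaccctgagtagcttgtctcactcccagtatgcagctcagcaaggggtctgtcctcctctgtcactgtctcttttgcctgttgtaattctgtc
Motifs were searched on both strands from 250 bases before to 50 bases after the start site, counting the start site as base 1, and the letters were chosen after the promoters had been seen. The Ets motif AGGAAG matched 3 times in Timp1, at -175, -99 and 41, once in Timp3 at -204, and once in Timp4 at -111 on the strand opposite to the gene, where the printed sequence shows it as CTTCCT, and 35.4% of 32851 mouse promoters held it. The letters TGAGTAA, a variant of the AP-1 motif TGANTCA, matched in Timp1 alone of the 5 genes, at base 27, and in 2.68% of all promoters. TGANTCA itself (7.81% of promoters) and the STAT motif TTCNNNGAA (8.3%) matched in none of the 5 windows. No match overlapped another, and a match is a description of letters only.

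Library totals lay between 21702659 and 29511782 counts, and 12 of 12 cardiomyocyte markers had counts in every library. Levels are given as CPM (the counts of a gene as a share of all counts of its library, on the standard scale) after TMM scaling over all 11 libraries. Differences are log2 fold changes from edgeR's quasi-likelihood test on the libraries of the groups compared, with the standard error (SE), and a gene was called at a Benjamini-Hochberg adjusted p under 0.01 over all genes tested. In the bulk tissue, fewer cells of a type and less RNA per cell cannot be told apart.

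The makeup of the family differed between healthy and infarcted tissue. Timp1 rose about 99-fold in DMSO mice and 67-fold in A10i mice, Timp4 fell in DMSO mice, Timp2 rose slightly in A10i mice, and Timp3 and Reck did not pass the test. In the comparison of DMSO with sham mice, 1 of 5 genes was called higher and 1 of 5 lower, beside 12.9% and 9.60% of all 17119 genes tested. The groups did not overlap for 1 gene that was higher and 3 that were lower, beside 25.1% and 23.6% of all genes. In the comparison of A10i with sham mice, 2 of 5 were called higher and 0 of 5 lower, beside 13.8% and 9.09% of 17004 genes. Here 2 genes were higher and 2 lower without overlap of the groups, beside 24.7% and 23.5% of all genes. With so many genes called, the share of these 5 genes does not set them apart from the background. Between A10i and DMSO mice edgeR called 0 of 5 genes in either direction, beside 0.00% higher and 0.00% lower of 16793 genes, while DESeq2 called 1 of the 5 and limma-voom 0. At an unadjusted p under 0.05 it found 1 of 5 genes higher and 0 lower, beside 7.10% and 6.73%, and the groups did not overlap for 1 gene that was higher and 0 that were lower, beside 4.01% and 4.11%.

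**Figure D1:**
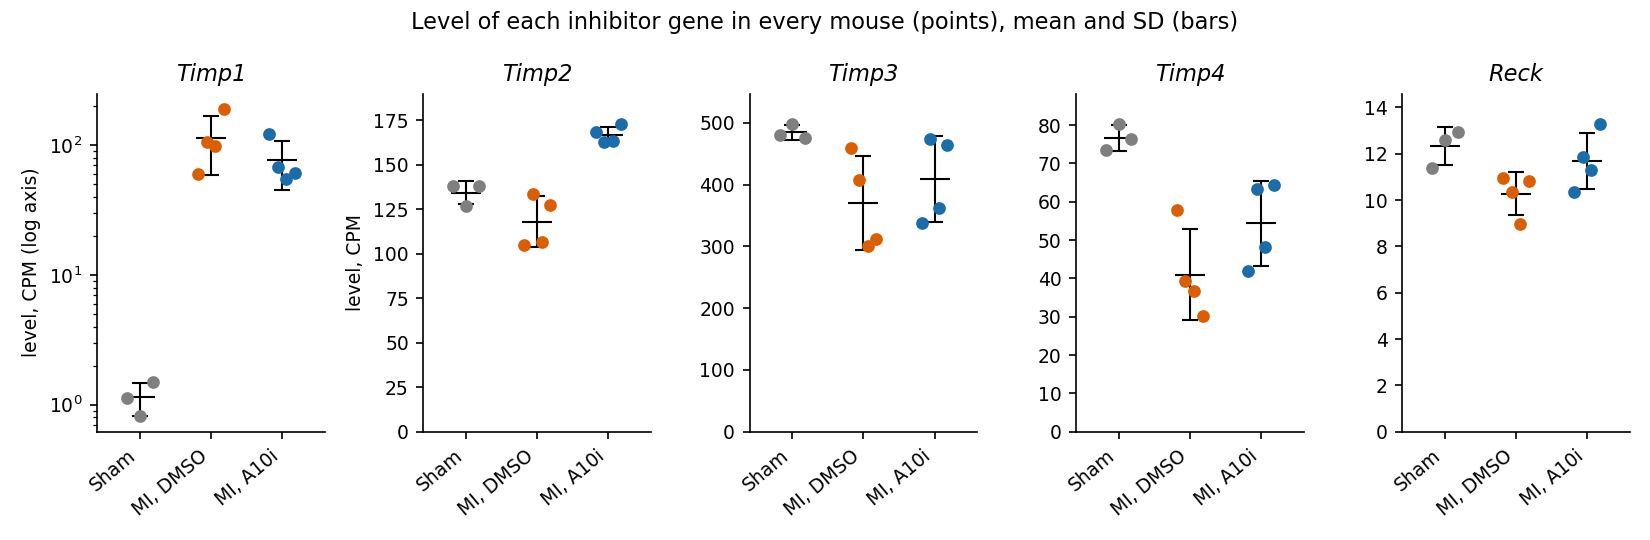
Level of Timp1, Timp2, Timp3, Timp4 and Reck in CPM (Timp1 on a log axis, the others from 0) in each of 3 sham, 4 DMSO and 4 A10i mice (points), with the mean and SD of each group (bars). Timp1 lies near 1 CPM in the 3 sham mice and at 55.0 CPM or above in all 8 infarcted mice, and the 4 A10i mice lie above all other mice for Timp2.

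Timp1 encodes the inducible secreted inhibitor, which blocks MMP9 and most other soluble MMPs. Its level was 1.13 CPM in S1, 0.823 in S2 and 1.49 in S3. In the DMSO mice it was 60.4 CPM in A105, 105.3 in A127, 98.4 in A128 and 191 in A129. In the A10i mice it was 123 CPM in A116, 67.9 in A117, 55.0 in A119 and 61.4 in A120. All 8 infarcted mice lay far above the sham mice, the A10i range lay inside the DMSO range but for its lowest mouse, and A129 and A116 stood at the top of their groups. The sham level rested on 22 to 37 counts per library, the infarcted levels on 1332 to 4867. Timp1 was 99.2-fold higher in DMSO than in sham mice (95% CI 45.8 to 215; log2 6.63, SE 0.49, edgeR adjusted p = 7.79e-05, n = 4 and 3) and ranked 72 by p among all genes tested. It was 67.2-fold higher in A10i than in sham mice (95% CI 35.0 to 128.96; log2 6.07, SE 0.41, edgeR adjusted p = 9.42e-05, n = 4 and 3), with rank 54. Every mouse left out and every other setting kept both calls. Between A10i and DMSO mice the difference was -0.57 on the log2 scale (SE 0.35, 95% CI -1.35 to 0.22, edgeR adjusted p = 0.519), within the spread between mice of a group, and the interval reached from 0.392-fold to 1.16-fold. Single mice moved this value, to -0.20 without A129 and -0.88 without A116, and it was not called without any 1 mouse (adjusted p = 0.275 to 0.827).

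Timp2 encodes the inhibitor that binds MMP14 and pro-MMP2 at the cell surface. It was measured at 138, 126.99 and 138 CPM in S1, S2 and S3. The DMSO mice had 105.1 CPM in A105, 133 in A127, 107 in A128 and 127.6 in A129. The A10i mice had 168 CPM in A116, 163 in A117, 164 in A119 and 173 in A120. All 4 A10i mice lay above all 7 other mice and close together, whereas DMSO and sham mice overlapped. The SD was 4.63 CPM in A10i mice, 14.4 in DMSO mice and 6.44 in sham mice. Timp2 was 1.24-fold higher in A10i than in sham mice (log2 0.32, SE 0.07, edgeR adjusted p = 0.00457, n = 4 and 3). This call was lost without S1 (adjusted p = 0.0211), S2 (0.0365), S3 (0.0204) or A120 (0.0130), and in 1 fit of all 11 libraries (0.0233), with log2 values of 0.27 to 0.33 in these fits. Against DMSO mice the A10i mice were 1.42-fold higher (log2 0.50, SE 0.10, 95% CI 0.29 to 0.71), which ranked 76 by p of 16793 genes but was not called (edgeR adjusted p = 0.0821, n = 4 and 4). DESeq2 called it (log2 0.50, adjusted p = 0.000350), among 106 genes higher and 125 lower, while the adjusted p of all other settings lay above the threshold, up to 0.177 with every mouse in place and up to 0.268 without 1 mouse. Between DMSO and sham mice Timp2 differed by -0.19 (SE 0.10, edgeR adjusted p = 0.174), and when libraries were scaled by their size alone the value was 0.02, below the 0.21 by which that scaling moved the median gene.

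Timp3, the matrix-bound inhibitor of ADAM10, ADAM17 and MMPs, had the largest number of reads of the 5 genes. Sham mice had 481, 498 and 475 CPM in S1, S2 and S3. DMSO mice had 460 CPM in A105, 408 in A127, 301 in A128 and 312 in A129. A10i mice had 338 CPM in A116, 473 in A117, 363 in A119 and 464 in A120. Each infarcted mouse lay below each sham mouse, though A105, A117 and A120 came close to the sham level and the other 5 lay well under it. The difference was -0.39 in DMSO against sham mice (SE 0.15, edgeR adjusted p = 0.0601) and -0.24 in A10i against sham mice (SE 0.12, edgeR adjusted p = 0.152), and neither was called. A10i and DMSO mice overlapped throughout, with a difference of 0.15 (SE 0.17, 95% CI -0.23 to 0.53, edgeR adjusted p = 0.753).

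Timp4 encodes the member with the most heart-restricted distribution. Its level was 73.5, 80.2 and 76.4 CPM in S1, S2 and S3. In DMSO mice it was 57.8 CPM in A105, 39.4 in A127, 36.6 in A128 and 30.2 in A129. In A10i mice it was 42.0 CPM in A116, 63.3 in A117, 48.1 in A119 and 64.2 in A120. All infarcted mice lay below the sham mice, and the 3 lowest were DMSO mice, but A105 lay between the A10i mice so that the treated groups overlapped. Timp4 was 1.88-fold lower in DMSO than in sham mice (log2 -0.91, SE 0.18, edgeR adjusted p = 0.00486, n = 4 and 3). The call was lost without S1 (adjusted p = 0.0182), S2 (0.0226), S3 (0.0208), A127 (0.0138) or A128 (0.0132) and without the filter on low counts (0.0227), while the log2 value stayed between -0.94 and -0.86 in these fits. In A10i against sham mice the difference was -0.49 (SE 0.14, edgeR adjusted p = 0.0226) and was not called, although DESeq2 called it (adjusted p = 0.00469), with adjusted p values up to 0.0785 in the other settings. Between A10i and DMSO mice it was 0.41 (SE 0.21, 95% CI -0.05 to 0.88, edgeR adjusted p = 0.421).

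Reck, the membrane-anchored inhibitor, had the fewest reads after infarction, with 260 to 337 counts per library over all mice. It was measured at 11.4, 12.6 and 12.9 CPM in S1, S2 and S3. DMSO mice had 10.97 CPM in A105, 10.3 in A127, 8.95 in A128 and 10.8 in A129. A10i mice had 10.4 CPM in A116, 11.8 in A117, 11.3 in A119 and 13.3 in A120. DMSO mice lay just below the sham mice, and A10i mice overlapped with both groups. The difference was -0.27 in DMSO against sham mice (SE 0.11, edgeR adjusted p = 0.0790), -0.07 in A10i against sham mice (SE 0.10, edgeR adjusted p = 0.610) and 0.19 in A10i against DMSO mice (SE 0.11, 95% CI -0.06 to 0.44, edgeR adjusted p = 0.490). With libraries scaled by their size alone the A10i and sham difference was 0.11, below the 0.18 by which that scaling moved the median gene. No comparison called Reck under any setting run.

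**Figure D2:**
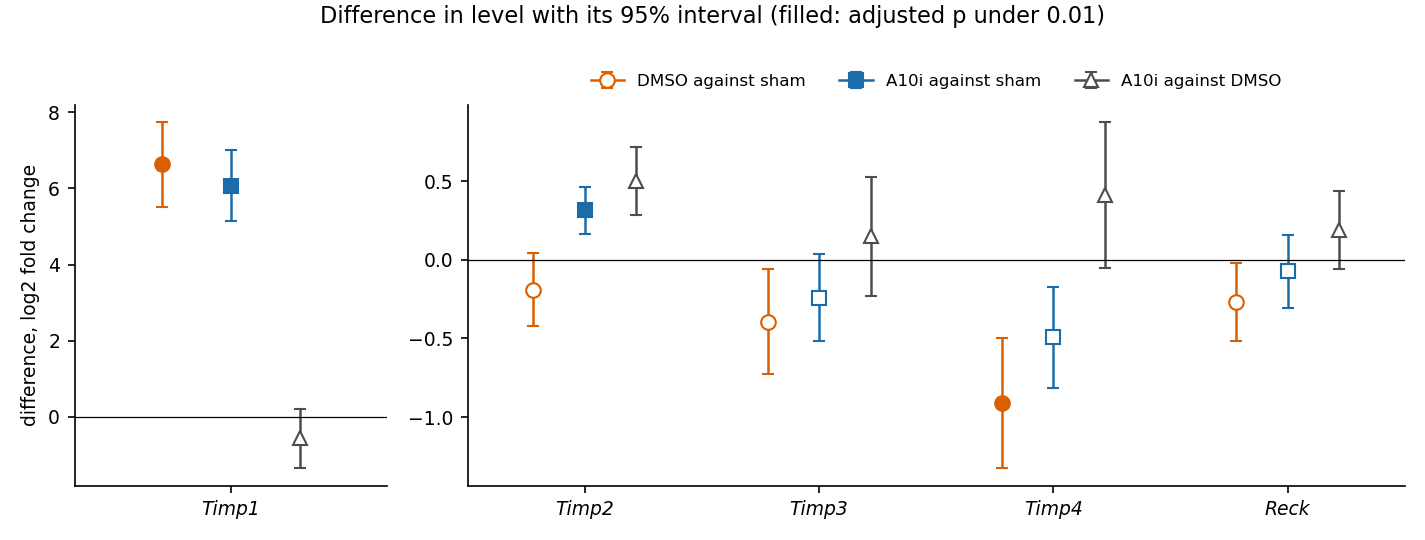
Difference in level (log2 fold change) of Timp1 (left, own axis) and of Timp2, Timp3, Timp4 and Reck (right) in the 3 comparisons, with 95% intervals as bars and filled symbols where the edgeR adjusted p is under 0.01. Timp1 stands at 6.63 and 6.07 against sham mice, Timp4 at -0.91 in DMSO mice and Timp2 at 0.32 in A10i mice, and no symbol is filled for A10i against DMSO.

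The infarcted mice did not fall into the same order for each gene. From high to low, Timp1 ran A129, A116, A127, A128, A117, A120, A105, A119, and Timp4 ran A120, A117, A105, A119, A116, A127, A128, A129. The 4 mice highest in Timp1 were thus the 4 lowest in Timp4. They were also the 4 infarcted mice with the lowest summed cardiomyocyte markers (45642 to 58307 CPM), and a link between these orders was not tested. Reck and Timp3 also had A129, A116 and A128 among their 4 lowest mice, and Timp2 instead split by treatment.

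Levels of different genes were compared per kilobase of the exon length in the count table. In sham mice the order was Timp3 (59.5 ± 1.44 CPM per kilobase, SD, n = 3), Timp2 (34.5 ± 1.65), Timp4 (13.01 ± 0.574), Reck (2.58 ± 0.171) and Timp1 (1.29 ± 0.377), and no neighbours overlapped. In DMSO mice Timp1 came first at 128.2 ± 62.2 (SD, n = 4), before Timp3 at 45.4 ± 9.40, Timp2 at 30.3 ± 3.71, Timp4 at 6.95 ± 2.01 and Reck at 2.15 ± 0.193, again with no overlap of neighbours. In A10i mice Timp1 stood at 86.5 ± 35.1 (SD, n = 4), Timp3 at 50.2 ± 8.48, Timp2 at 42.8 ± 1.19, Timp4 at 9.23 ± 1.88 and Reck at 2.45 ± 0.255, and here Timp2 and Timp3 overlapped. By this length, the gene with the lowest level of the 5 in healthy tissue was therefore the highest after infarction. The length of Timp3 matters for this order, since its merged exons count 8144 bases and its principal transcript 4722. With principal transcripts as lengths, a setting added after seeing the data, the level of Timp1 overlapped with that of Timp3 in both infarcted groups (68.4 to 217 against 63.7 to 97.3 CPM per kilobase in DMSO mice, 62.3 to 139 against 71.5 to 100.1 in A10i mice). Timp3 then stood above Timp1 in A105 (97.3 against 68.4), A117 (100.1 against 76.9), A119 (76.8 against 62.3) and A120 (98.2 against 69.5). It stood below Timp1 in A127, A128, A129 and A116.

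The summed level of the 4 TIMP genes was 108 CPM per kilobase in each of the 3 sham mice, 161 to 291 in DMSO mice and 157 to 230 in A10i mice. Timp1 made up 1.19% ± 0.347 of this sum in sham mice (SD, n = 3), 58.4% ± 13.1 with DMSO (SD, n = 4) and 44.7% ± 10.4 with A10i (SD, n = 4). The share of Timp3 was 54.9% in sham mice, 23.1% with DMSO and 27.2% with A10i, and that of Timp4 was 12.0%, 3.61% and 5.02%. Timp2 held 31.9% in sham mice, 11.2 to 16.7% in DMSO mice and 18.8 to 26.8% in A10i mice. Its share did not overlap between any of the 3 groups by this length, but by principal transcripts the sham mice (22.1 to 24.3%) and the A10i mice (17.2 to 22.99%) overlapped. By principal transcripts Timp1 held 0.844% in sham mice, 50.4% with DMSO and 37.3% with A10i, where Timp3 then held 38.4%. The shares are a description and were not tested.

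**Figure D3:**
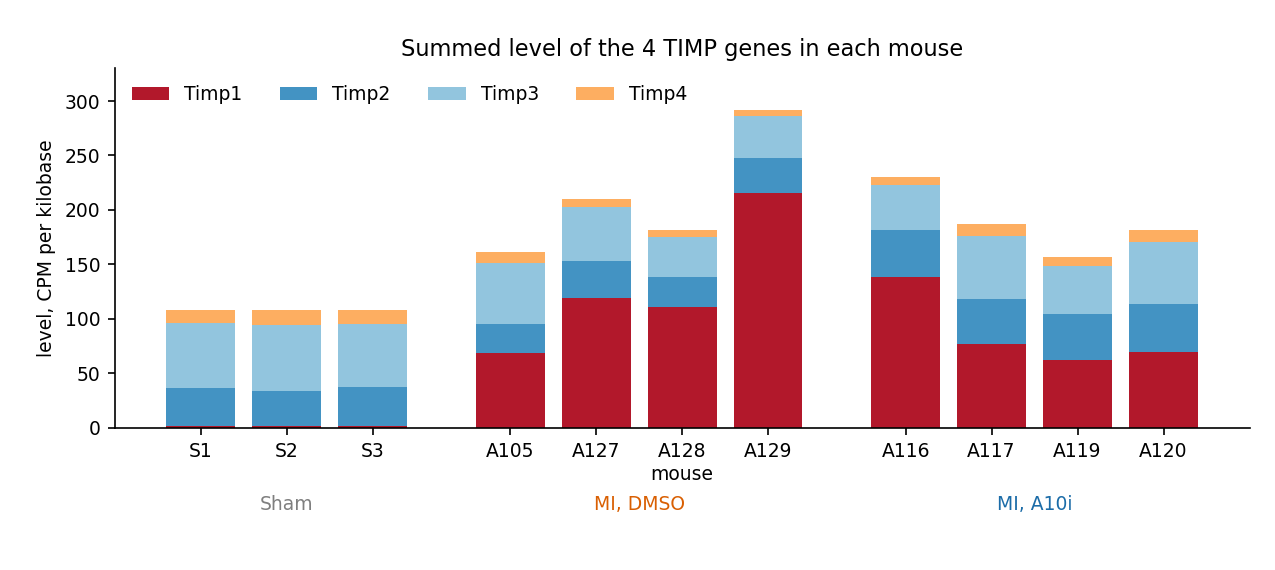
Summed level of Timp1, Timp2, Timp3 and Timp4 in CPM per kilobase (stacked bars) in each mouse. The sum is 108 in all 3 sham mice with hardly any Timp1, and 157 to 291 in the infarcted mice, of which Timp1 makes up 38.1 to 73.9%.

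The main target enzymes moved differently from each other. Adam10, the target of A10i, had 57.2 ± 2.37 CPM in sham mice (SD, n = 3), 70.4 ± 16.4 with DMSO (SD, n = 4) and 74.6 ± 10.99 with A10i (SD, n = 4), and it was not called in any comparison (A10i against DMSO: log2 0.09, SE 0.16, edgeR adjusted p = 0.853). All 4 A10i mice lay above the sham mice (log2 0.39, SE 0.10, edgeR adjusted p = 0.0141), as in 24.7% of all genes. Adam10 mRNA does not measure the activity that the inhibitor blocks. Adam17, the sheddase of TNF, was at 47.1 to 52.7 CPM in the group means and was not called either. Mmp2, the gelatinase that TIMP2 helps to activate, had 67.4, 62.0 and 80.6 CPM in the means of sham, DMSO and A10i mice. All 4 A10i mice lay above the DMSO mice for Mmp2, as they did for Timp2, but the difference of 0.38 was not called (SE 0.10, edgeR adjusted p = 0.157). Mmp9, the gelatinase of neutrophils, was 18.8-fold higher in DMSO than in sham mice (log2 4.23, SE 0.30, edgeR adjusted p = 5.15e-05). In A10i mice its difference from sham was 2.40 (SE 0.58, edgeR adjusted p = 0.0114), and all 4 A10i mice lay below the DMSO mice (log2 -1.84, SE 0.43, edgeR adjusted p = 0.121), neither of them called. The paper, which tested with DESeq2, reported Mmp9 as significantly lower in A10i than in DMSO mice. Mmp14, the membrane-type collagenase bound by TIMP2 and RECK, rose 6.76-fold in DMSO mice (log2 2.76, SE 0.33, edgeR adjusted p = 0.000522) and 6.995-fold in A10i mice (log2 2.81, SE 0.29, edgeR adjusted p = 0.000369) against sham, with a difference of 0.04 between both (SE 0.33).

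Ratios of inhibitor to enzyme, each from levels per kilobase within 1 library, do not depend on how libraries are scaled. They do depend on the gene lengths used, which change a ratio by the same factor in every mouse. Mmp14 had a mean of 1.82 CPM per kilobase in sham mice by merged exons, used here, and 4.19 by its principal transcript. Of 8 ratios computed, described here without a test, that of Timp1 to Mmp14 was the most uniform within the infarcted groups. It was singled out after the values were seen. In DMSO mice its lead was small, at 10.3 ± 1.08 (SD) beside 1.65 ± 0.176 for Timp2 to Mmp2. Timp1 to Mmp14 was 9.42 in A105, 9.41 in A127, 11.6 in A128 and 10.8 in A129. In the A10i mice it was 6.86 in A116, 7.10 in A117, 6.52 in A119 and 6.63 in A120, and in sham mice 0.646, 0.514 and 0.985. The 2 infarcted groups did not overlap, although Timp1 itself differed 3.16-fold between DMSO mice and 2.23-fold between A10i mice, and overlapped. Of single genes, 4.01% were higher and 4.11% lower in A10i than in DMSO mice without overlap. No such share was computed for ratios. Neither Timp1 nor Mmp14 was called between these groups (edgeR adjusted p = 0.519 and 0.972). The ratio of Timp1 to Mmp9 ranged from 4.93 to 5.67 in sham mice, 16.6 to 33.5 with DMSO and 46.0 to 171 with A10i, again without overlap. Timp2 to Mmp2 stayed between 1.503 and 1.92 in all 11 mice, and the groups overlapped. Timp2 to Mmp14 was 18.1 to 20.8 in sham mice and 1.64 to 4.42 in infarcted mice, and Reck to Mmp14 was 1.21 to 1.59 in sham and 0.108 to 0.318 in infarcted mice. Timp3 to Adam10 was 5.04 to 5.25 in sham mice, 2.02 to 4.87 in DMSO mice and 2.24 to 4.14 in A10i mice, with overlap of the infarcted groups. Timp3 to Adam17 was 8.63 to 9.05 in sham and 4.77 to 9.25 in infarcted mice, and Timp1 to Timp2 was 0.0284 to 0.0474 in sham mice, 2.52 to 6.57 with DMSO and 1.47 to 3.20 with A10i.

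**Figure D4:**
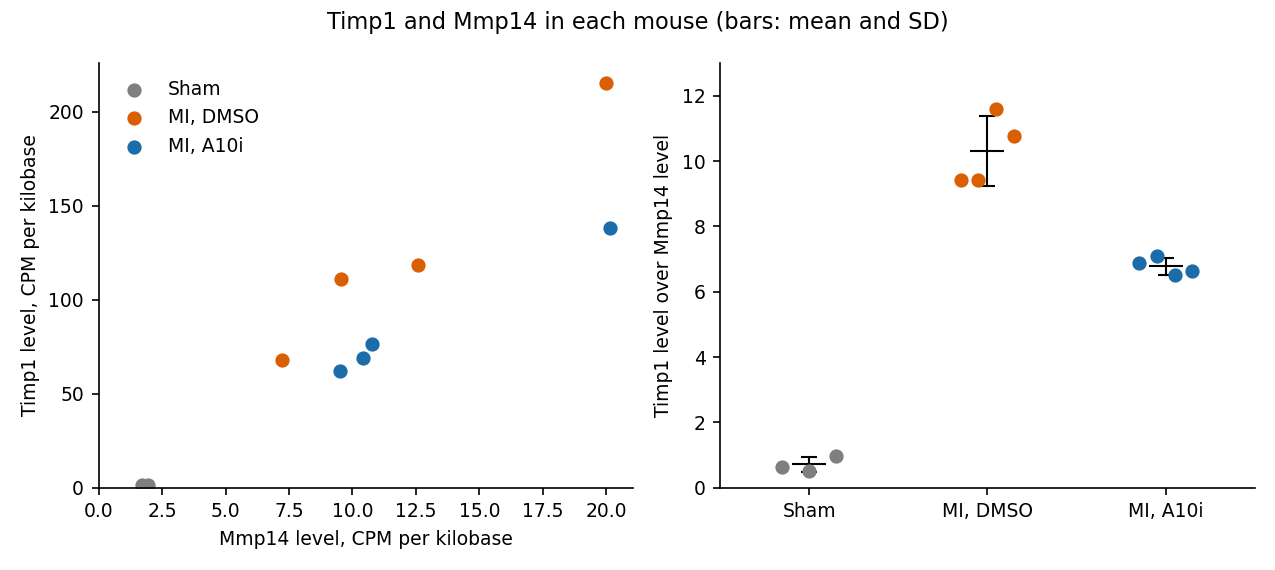
Left, level of Timp1 against that of Mmp14 in CPM per kilobase in each mouse; right, the ratio of the levels in each mouse (points) with mean and SD (bars). The ratio lies at 9.41 to 11.6 in the 4 DMSO mice and at 6.52 to 7.10 in the 4 A10i mice, and under 1 in the sham mice.

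In the lists of the enzymes that TIMPs inhibit, more genes were called higher than lower after infarction. Counts and medians of a list cover the genes that passed the filter on low counts, and a gene that passed through the infarcted mice alone had to be higher in them. Of the secreted MMPs, 11 of 17 were tested against sham, and in DMSO mice 6 rose and 1 fell (median log2 2.43, beside 0.00 over all genes tested), in A10i mice 6 rose and 0 fell (median 2.40, beside -0.01). Mmp8, the neutrophil collagenase, had 0.0403 CPM in sham mice, 8.08 with DMSO and 3.95 with A10i, and Mmp12, the macrophage elastase, 0.189, 7.72 and 9.63. Mmp3, stromelysin 1, had 1.05, 24.6 and 16.8 CPM, and these 3 genes were the largest changes called in both comparisons. Of 6 membrane-type MMPs tested in DMSO mice, 2 rose (Mmp14 and the low Mmp24, at 0.0663 CPM in sham and 0.561 in DMSO mice) and 1 fell, Mmp15, by 0.75 on the log2 scale (edgeR adjusted p = 0.00140). Of 4 tested in A10i mice Mmp14 rose and Mmp15 fell by 0.57 on the log2 scale (edgeR adjusted p = 0.00143). Against sham mice, Mmp24 and Mmp25 passed the filter with DMSO mice only.

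Among ADAM proteases 5 of 8 tested rose and 1 fell in DMSO mice (median 0.72), and 5 rose and 0 fell in A10i mice (median 0.63). Adam8, a leukocyte sheddase, was at 0.815, 40.6 and 29.0 CPM in sham, DMSO and A10i mice. Adam12 was at 0.864, 24.2 and 19.6 CPM, and Adam19 at 23.5, 74.7 and 50.5. The ADAMTS proteases, which cut proteoglycans and procollagen, gave 8 of 16 higher and 1 lower in DMSO mice (median 0.75) and 7 higher and 1 lower in A10i mice (median 0.64). Adamts4, an aggrecanase that TIMP3 inhibits, was at 0.232, 27.0 and 10.7 CPM, Adamts8 at 1.07, 5.18 and 6.03, Adamts1 at 46.0, 216 and 106, and Adamts12 at 2.65, 10.4 and 12.8. For the rule of 3 genes a list, Adamts1 was named from DMSO mice and Adamts12 from A10i mice.

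Of 11 genes whose products bind TIMPs or RECK, 9 were tested, of which 5 rose and 2 fell in DMSO mice (median 0.56), and 4 rose and 0 fell in A10i mice (median 0.39). Cd63, the tetraspanin that holds TIMP1 at the cell surface, rose 1.103 in DMSO mice and 1.03 in A10i mice on the log2 scale (edgeR adjusted p = 6.93e-05 and 8.63e-05). Adgra2, the partner of RECK in WNT7 signaling, rose by 1.04 and 0.98 (edgeR adjusted p = 0.00520 and 0.000994). Itga3, which pairs with the TIMP2 receptor ITGB1, rose by 0.85 in DMSO mice (edgeR adjusted p = 0.00144), and differed by 0.39 in A10i mice (0.0153). Lrp1, the endocytic receptor that clears TIMPs, rose by 0.67 in DMSO and 0.68 in A10i mice (edgeR adjusted p = 0.00355 and 0.00554).

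Of 10 inhibitors of other proteases, 7 rose and 0 fell in both comparisons (medians 1.34 and 1.5). Serpina3n, a serine protease inhibitor of the acute phase, was at 3.56 CPM in sham mice, 178 with DMSO and 144 with A10i. Slpi, which inhibits neutrophil elastase, was at 0.0519, 5.35 and 3.58 CPM, and Spint1, an inhibitor of hepatocyte growth factor activator, at 0.0653, 1.36 and 0.986. Of the cytokines that induce Timp1, their receptors and Stat3, 11 were tested in both comparisons with sham mice. Of these, 7 rose, Stat3 among them, and 0 fell in each. Il11 and Osm passed the filter against sham mice with DMSO mice only and were called higher there. Il6 was at 0.0134 CPM in sham mice, 3.61 with DMSO and 1.33 with A10i, Il1b at 0.152, 6.50 and 1.83, Osm, which encodes oncostatin M, at 0.0269, 0.864 and 0.509, and Lif at 0.335, 2.74 and 1.51.

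Between A10i and DMSO mice edgeR called no gene of these lists at the threshold, and the genes below had an unadjusted p under 0.05 only. Such genes were 3 higher and 2 lower of 11 secreted MMPs, 1 and 0 of 6 membrane-type MMPs, 1 and 1 of 8 ADAM proteases, 3 and 4 of 16 ADAMTS proteases, 2 and 1 of 9 partners, and 0 and 6 of 13 inducers and receptors, counting Stat3. The medians were 0.38, -0.11, -0.09, 0.16, 0.01 and -0.32 in this order, beside 0.00 over all genes tested and 0.19 over the 5 inhibitor genes. Mmp9 (-1.84, above) and Mmp8 (-1.03, edgeR adjusted p = 0.247) were lower and Mmp28 (0.67, adjusted p = 0.139) higher in A10i mice. Mmp17 differed by 0.36 (adjusted p = 0.344), Adam33 by 0.60 (0.256) and Adam19 by -0.56 (0.147). Adamts4 differed by -1.33 (adjusted p = 0.222), Adamts1 by -1.02 (0.238) and Adamts7 by 0.83 (0.0581). Kdr, the VEGF receptor that TIMP3 blocks, differed by 0.56 (adjusted p = 0.0949), Itga3 by -0.47 (0.176) and the WNT receptor gene Fzd4 by 0.23 (0.245). Among the inducers Il11 differed by -2.51 (adjusted p = 0.0931), Il1b by -1.82 (0.140) and Il6 by -1.44 (0.217).

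**Figure D5:**
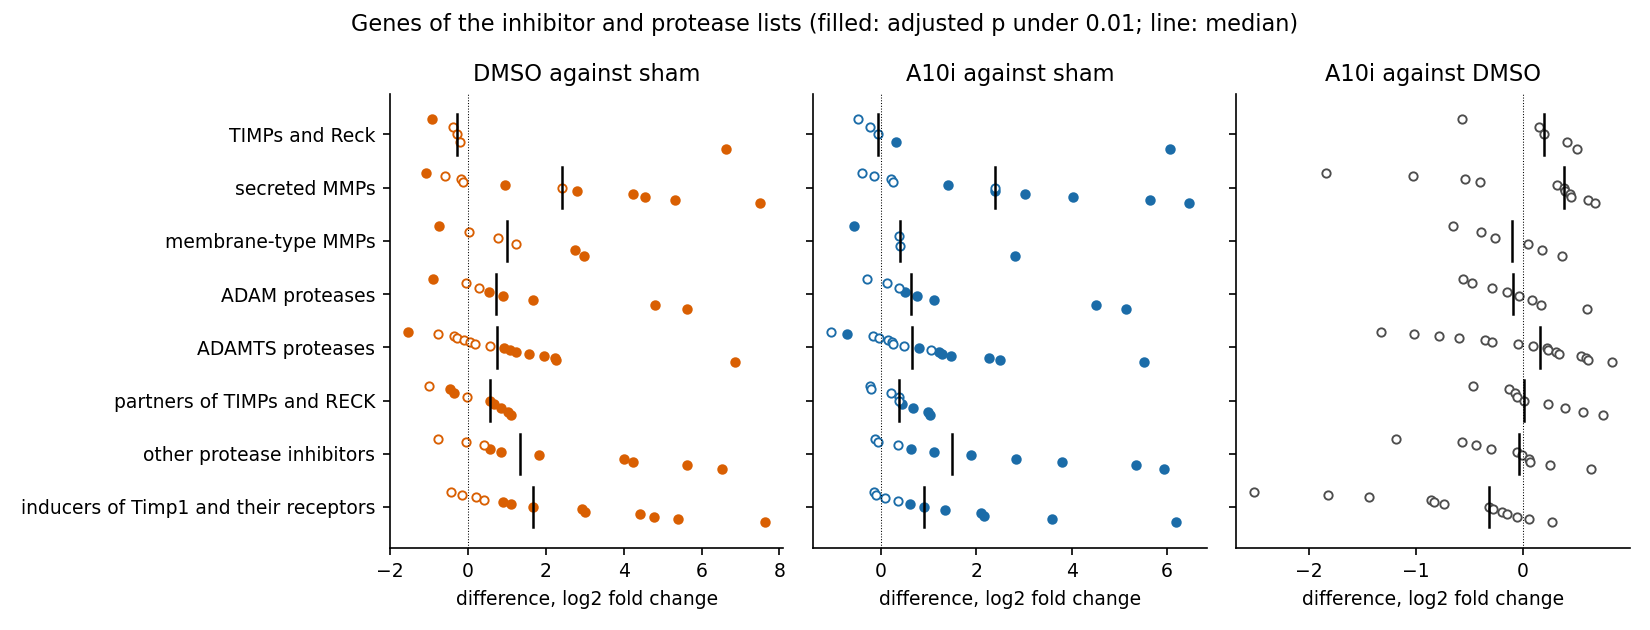
Difference (log2 fold change) of each tested gene of the inhibitor and protease lists in the 3 comparisons, with filled points where the edgeR adjusted p is under 0.01 and a line at the median of the tested genes of each list. The median of the secreted MMPs lies at 2.43 and 2.40 against sham mice, that of the TIMPs and Reck at -0.27 and -0.07, and no point is filled for A10i against DMSO.

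Markers of several cell types in the tissue also differed between the groups, and their part in the results was not tested. The summed level of 12 cardiomyocyte markers was 88466 to 91077 CPM in sham mice, 45642 to 64221 with DMSO and 51428 to 70121 with A10i, lower in both infarcted groups as was Timp4, and 6 of 12 markers fell and 1 rose in DMSO mice, 4 fell and 0 rose in A10i mice. A119, A105, A120 and A117 had the 4 highest sums of the infarcted mice and also the 4 highest Timp4 levels. A129 was the lowest in both. Within the upper 4 the order differed, since A119 had the highest sum and ranked below A120, A117 and A105 in Timp4. Mitochondrial genes held 21.5 to 22.2% of counts in sham mice and 14.8 to 18.6% in infarcted mice. For Timp1, the 10 neutrophil markers summed to 1.68 to 2.99 CPM in sham mice, 81.0 to 150 with DMSO and 15.03 to 55.5 with A10i. Markers such as Mmp8 and Retnlg, with at most 3 and 2 counts in a sham mouse, passed the filter only through the infarcted mice, and Ly6g, Camp and Ngp did not pass it. Ly6g, a defining neutrophil marker, had 0 counts in all 3 sham mice and 1 to 8 in infarcted mice, and Camp at most 3 counts in any library. Between A10i and DMSO mice Timp1 differed by -0.57 on the log2 scale, with overlap, and its relation to the neutrophil markers was not tested. All 7 neutrophil markers tested had an unadjusted p under 0.05 for lower levels in A10i than in DMSO mice (median -1.84). By the same rule 5 of 10 macrophage markers were higher and 1 lower in A10i mice, and 3 of 10 fibroblast, 3 of 10 endothelial and 3 of 10 mural cell markers were higher and 0 lower. The medians of these 10 markers each were 0.39, 0.49, 0.13 and 0.17 in this order, beside 0.50 for Timp2 on the log2 scale. The 10 macrophage markers summed to 359 to 393 CPM in sham mice, 606 to 1019 with DMSO and 776 to 1456 with A10i (8 and 10 of 10 called higher). The 10 fibroblast markers summed to 1228 to 1325, 1990 to 6496 and 4960 to 9047 CPM (4 and 8 of 10 higher), and no marker of these last lists was at 0 in any library. For Timp2 in A10i mice, the 10 endothelial markers summed to 1539 to 1583 CPM in sham mice, 1334 to 1484 with DMSO and 1581 to 1760 with A10i, with 2 of 10 lower in DMSO mice, 1 of 10 lower in A10i mice and 0 called higher. The 10 mural cell markers summed to 3653 to 3736, 3191 to 4268 and 3371 to 3552 CPM, with 4 lower and 1 higher in both infarcted groups. Kdr counts among both the endothelial markers and the partners, and Mmp8 and Mmp9 among both the neutrophil markers and the secreted MMPs.

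For each gene the 3 genes of most similar pattern were taken as those with the smallest root mean square difference of log2 CPM, centred on each gene's mean over the 11 libraries, among 17499 genes. Nearest to Timp1 were Sirpb1c (0.475), Mmp8 (0.525) and Tnc (0.550), where the median gene was at 2.82. Tnc, the matrix protein tenascin C, was at 1.36, 155 and 193 CPM in sham, DMSO and A10i mice. Nearest to Timp2 were Cd34 (0.0843), Calcrl (0.101) and Itm2a (0.104), beside 0.357 for the median gene. Cd34, a surface protein of endothelial and stromal progenitor cells, was at 153, 152 and 194 CPM. Nearest to Timp3 were Podxl (0.120), Slc9a3r2 (0.123) and Hspb8 (0.128), beside 0.363. Podxl, a sialomucin of endothelial cells and podocytes, was at 246, 182 and 206 CPM. Nearest to Timp4 were Sh3d21 (0.139), Acot11 (0.163) and the mitochondrial gene mt-Nd6 (0.176), beside 0.512. Acot11, an acyl-CoA thioesterase, was at 48.0, 26.4 and 34.04 CPM. Nearest to Reck were Card19 (0.0835), Zdhhc7 (0.0837) and Trappc2l (0.0845), beside 0.302. Among the 5 genes themselves, Timp3 and Reck were the closest pair (0.171), then Timp2 and Reck (0.216) and Timp3 and Timp4 (0.240), and Timp1 was at least 2.80 from each of the others.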

How the data were processed

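Counts per gene of 11 mouse heart libraries were analysed. According to the submitters' processing notes and the paper's methods, the authors converted reads with bcl2fastq 2.20.0, aligned them with GSNAP to mm10 and assigned them to Ensembl genes with featureCounts 2.0.1. The deposited table holds raw counts without normalization. Libraries were strand-specific, but the strand setting of the counting is not given in the sources used here, so reads in exons shared by genes on opposite strands cannot be assigned with certainty. Symbols came from the reference table for 55154 of 55513 genes, positions and exon overlaps from the count table, principal transcripts from GENCODE M21 and promoters from RefSeq.

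Groups followed the sample labels (3 sham, 4 DMSO, 4 A10i). Each sample was taken as 1 mouse, and totals were 21702659 to 29511782. In all pairs of replicates the spread exceeded counting error (chi-square over its degrees of freedom 4.04 to 60.8). In R 4.3.3, edgeR 4.0.16 was used with filterByExpr, TMM, robust quasi-likelihood F-tests (two-sided), Benjamini-Hochberg adjustment over all genes tested and a threshold of 0.01. The SE is the log2 fold change over the square root of F. DESeq2 1.42.0, limma 3.58.1 (voom), other scalings, no filter, no mitochondrial genes, a threshold of 0.05, a joint fit and leaving out each mouse were alternatives. Scripts were tested on simulated data with 200 changed genes. Python with pandas 2.3.3 gave the descriptions. log2 CPM for patterns used a prior count of 2.

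The 5 genes, the gene lists and the tests were chosen with earlier results of these data known. Named were the 5 inhibitor genes, Adam10, Adam17, Mmp2, Mmp9, Mmp14 and the 3 synapsin genes; of each other protease, inhibitor, partner or inducer list the 3 called genes of largest change in a comparison (between A10i and DMSO mice, those at an unadjusted p under 0.05); and the 3 genes nearest in pattern to each inhibitor gene. Marker genes named beside them, and the motifs, were chosen after their values or sequences were seen. Of the genes this rule takes, 1 is not reported here.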

Additional observations from a re-analysis of the deposited data

How the results depend on the processing

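The 15 results (5 genes in 3 comparisons) had 215 alternative values in all, of which 200 kept direction and side of the threshold, 11 lost the call, 2 gained one and 2 changed direction. All 110 values without 1 mouse kept their direction, and 9 results kept their direction and side of the threshold in every setting. The 2 that changed direction were never called and came from scaling by library size alone, with 0.0239 for Timp2 in DMSO against sham mice (main -0.19) and 0.11 for Reck in A10i against sham mice (main -0.07). That scaling moved the median of all genes to 0.21 and 0.18 and gave 3330 genes higher and 708 lower in DMSO mice (TMM: 2214 and 1643) and 3435 and 576 in A10i mice (TMM: 2339 and 1546). Timp4 in DMSO against sham mice lost its call without the filter (log2 -0.91, adjusted p = 0.0227), so that 1 of the 5 genes was called in place of 2. Without 1 mouse its log2 value ranged from -1.13 to -0.79, and 1 to 2 genes were called. Timp2 in A10i against sham mice lost its call in 1 fit of all 11 libraries (log2 0.31), again leaving 1 gene called in place of 2. Without 1 mouse its log2 value ranged from 0.27 to 0.33, and 1 to 2 genes were called. DESeq2 called Timp4 in A10i against sham mice (log2 -0.49) and Timp2 in A10i against DMSO mice (log2 0.50), 1 gene in place of 0 there. Without 1 mouse, the A10i and DMSO differences ranged from -0.88 to -0.20 for Timp1, 0.45 to 0.56 for Timp2, 0.06 to 0.27 for Timp3, 0.29 to 0.62 for Timp4 and 0.12 to 0.25 for Reck, none called. Without 1 of 3 sham mice, 921 to 977 genes were called higher in DMSO mice, and 1062 to 1117 in A10i mice. Without 1 infarcted mouse, 1825 to 2288 were called higher in DMSO mice and 1756 to 2544 in A10i mice. In A10i against DMSO mice 0 genes were called higher and 0 lower by edgeR and limma-voom, 106 and 125 by DESeq2, 18 and 25 without the filter, 2 and 9 in 1 fit of all libraries and 3 and 9 at a threshold of 0.05. No paired analysis was possible because the groups share no replicate numbers. Depth limits Timp1 in sham mice (22 to 37 counts) and Reck (260 to 337 counts) most.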

Other observations

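Of 10 groups of 4 mice (5 genes in DMSO and A10i mice), 0 had a mouse whose gap to the nearest other exceeded Dixon's 95% critical value on log2 CPM. A129, the DMSO mouse with the highest Timp1, also had the lowest Timp4, the lowest mitochondrial share (14.8%) and the lowest summed cardiomyocyte markers (45642 CPM) of all 11 mice. A116 held the corresponding place among the A10i mice, with the highest Timp1, the lowest Timp4 (42.0 CPM), the lowest mitochondrial share (15.7%) and the lowest cardiomyocyte markers (51428 CPM) of that group, and its fibroblast and macrophage marker sums (9047 and 1456 CPM) were the highest of all mice. A105, the DMSO mouse with the lowest Timp1 and the highest Timp3 and Timp4 of its group, had the lowest fibroblast and macrophage marker sums (1990 and 606 CPM) of the 8 infarcted mice. Timp2 did not follow this order of the mice. These are values of single mice, without a test.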
